A study of Mus musculus with 55 samples.

Results

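The genes of the RNA polymerase II machinery were followed through exit from mitosis in mouse embryonic stem (ES) cells. The members are the genes for subunits of polymerase II, for the general transcription factors and TBP-associated factors (TAFs), and for Mediator. They were chosen by gene symbol only: every symbol beginning with Polr2 and a letter from a to m, with Gtf2, or with Taf or Med and a number, plus Tbp, Ccnc and Cdk8. This gave 81 genes of the 10574 listed in either table of values, that is 79 of 9911 in CCNA-GFP cells and 81 of 10237 in CTCF-AID cells. The 79 are shared, and Med10 and Med9os were listed in CTCF-AID only. Med9os, an antisense transcript next to Med9, fits the symbol rule without encoding a Mediator subunit. Gtf2b, Med12l, Taf9b, Gtf2a1l and Gtf2ird2 were not analysed here.

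Polymerase II is recruited to promoters by general transcription factors: TFIID, which holds the TATA-binding protein Tbp, then TFIIA, TFIIB, TFIIE, TFIIF and TFIIH. Mediator is a large complex of head, middle, tail and kinase modules that bridges enhancer-bound activators and polymerase II. During mitosis chromatin is condensed and most transcription stops, so daughter cells must restart it, including transcription of the genes for the machinery itself.

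Both lines derive from E14Tg2a cells, a mouse ES cell line, and were grown in serum and LIF. CCNA-GFP cells express a cyclin A-GFP reporter of the cell cycle. CTCF-AID cells are a single derived line in which CTCF, the architectural DNA-binding protein, carries an auxin-inducible degron, so that the auxin IAA triggers loss of the protein. Mitotic cells were obtained with the CDK1 inhibitor RO-3306 (10 µM, 4 h), then the microtubule poison nocodazole (50 ng/ml, 4 h) and shake-off, and release was by removal of nocodazole. In the +IAA arm 0.5 mM IAA was added for the last 2 h of nocodazole and kept during release. Asynchronous +IAA cells received it in parallel for 4 h, and the -IAA arm and CCNA-GFP cells received none. The study asked how fast genes are reactivated after mitosis and which of them need CTCF for it.

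The data are 55 libraries: 19 of CCNA-GFP cells and 36 of CTCF-AID cells, with 3 replicates of mitotic and of asynchronous cells per arm and 2 at each time after release (20, 30, 40, 60, 90 and 120 min in CCNA-GFP; 20, 40, 50, 60, 90 and 120 min in CTCF-AID), besides 1 CCNA-GFP library at 50 min. The unit is TPM, the length-corrected share of transcripts, of the unspliced pre-mRNA, which follows ongoing transcription more closely than mRNA. TPM keep no read counts, so depth is unknown and no counting interval can be given. Listed totals ran from 13747 to 42576 TPM in CCNA-GFP and from 17702 to 43370 in CTCF-AID. Every library carries a multiplier of its own, which no source names, of 2.17 to 3.81 in CCNA-GFP and 1.84 to 2.80 in CTCF-AID. The members made up 0.913 to 1.05% of the listed total in CCNA-GFP and 0.897 to 1.08% in CTCF-AID. Of 10 ES cell markers 9 were listed in both tables, among them Pou5f1 and Nanog, summing to 32.3 to 133 and 42.7 to 141 TPM. No fibroblast marker of 8 was listed in CCNA-GFP and 2 were in CTCF-AID, summing to 0.146 to 3.42 TPM, and none of 6 endoderm markers was listed in either. Of 6 mesoderm and ectoderm markers 4 were listed, summing to 0.759 to 7.66 and 0.964 to 15 TPM, and the part of any such cells in the results was not tested. In a bulk sample, more cells that have left mitosis and more pre-mRNA per cell cannot be told apart.

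Calls among the members began at 40 min after release. Changes are differences of log2(TPM + 1), tested with limma on all genes with the replicate as a block and called at a Benjamini-Hochberg adjusted p under 0.05. The 1 added to TPM shrinks changes of genes near or below 1 TPM, so changes of genes at different levels are not alike in fold. No member was called at 20 min in CCNA-GFP, -IAA or +IAA, where 0%, 0% and 0% of all genes were higher than in mitosis, and 3, 4 and 0 members had an unadjusted p under 0.05 (0, 0 and 0 without the block). At 30 min in CCNA-GFP 0 of 79 members were called against 0.303% of all genes, with 14 members at an unadjusted p under 0.05 (13 without the block). The fitted change in CCNA-GFP was above 0 for 72 of 79 members at 20 min and 73 at 30 min (37 and 78 without the block). At 20 min it was above 0 for 64 and 44 of 81 in -IAA and +IAA (37 and 18 without the block). Shares of all genes above 0 are not given here. With 2 libraries at each time, a lack of calls does not show that levels were unchanged. At 40 min 50 of 79 members were higher than in mitosis in CCNA-GFP, where 49.3% of all genes were, 56 of 81 in -IAA against 63.3%, and 57 of 81 in +IAA against 58.7%. As shares, 63.3%, 69.1% and 70.4% of the members had risen by then. Without the replicate block the counts at 40 min were 27, 42 and 37, and the shares of all genes in that fit are not given here. The median member changed by 0.42, 0.53 and 0.50 on the log2 scale at 40 min, and the median of all genes by 0.26, 0.34 and 0.30. With library totals made equal these were 0.053, 0.11 and 0.10 for the members and -0.051, -0.016 and -0.033 for all genes.

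At 60 min nearly every member was above its mitotic level. In CCNA-GFP 75 of 79 had risen against 88.3% of all genes, in -IAA 72 of 81 against 84.8%, and in +IAA 68 of 81 against 82.2%. The shares of members, 94.9%, 88.9% and 84%, were close to those of all genes. Members tested here and at other times include Taf7l, and in CTCF-AID Med10 and Med9os, which were listed through their levels after release. For these a rise is part of what selected them. The members' median change was 1.08, 0.75 and 0.73, set against 0.79, 0.63 and 0.63 for all genes, on the deposited scale. At equal totals the members' median was 0.11, 0.083 and 0.10. Only 1, 2 and 3 members fell at 60 min, where 0.515%, 2.7% and 4.04% of all genes did: Taf9 in CCNA-GFP, Taf9 and Taf1b in -IAA, and these with Gtf2i in +IAA. The changes of the 79 shared members at 60 min ranked alike in both lines (Spearman's rho 0.90 between CCNA-GFP and -IAA, 0.86 over 9574 genes, which are not independent replicates).

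The members' median level at 60, 90 and 120 min was 4.21, 4.39 and 3.57 TPM in CCNA-GFP, 4.12, 3.39 and 2.77 in -IAA and 3.70, 3.34 and 2.95 in +IAA, with 2.09, 1.94 and 1.98 TPM in asynchronous cells of the 3 arms. These levels come from different replicates at different stages, which only the blocked fits allow for. In those fits the members' median change from mitosis at these times was 1.08, 0.92 and 0.85 in CCNA-GFP. It was 0.75, 0.51 and 0.50 in -IAA, and 0.73, 0.49 and 0.44 in +IAA. At 50 min 66 of 81 members were higher than in mitosis in -IAA against 79.1% of all genes, and 65 of 81 in +IAA against 78.2%. At 90 min the counts were 76, 65 and 61 in CCNA-GFP, -IAA and +IAA, with 89.1%, 74.8% and 73.8% of all genes higher. At 120 min they were 76, 61 and 55, with 90.2%, 69.6% and 68.2% of all genes higher, and the +IAA count was 35 without replicate 2. Between 60 and 120 min 31 of 79 members fell in CCNA-GFP (28.5% of all genes), 52 of 81 in -IAA (53.1%) and 47 of 81 in +IAA (50.8%). Those that rose numbered 8, 4 and 4, where 9.6%, 7.31% and 7.61% of all genes did. Without replicate 1 the CCNA-GFP count of falls was 6, and without the block the counts of falls in CCNA-GFP and -IAA were 11 and 31. For counts without a replicate or without the block, shares of all genes are not given here. The median member changed by -0.20, -0.36 and -0.35 from 60 to 120 min on the deposited log2 scale, and by -0.059, -0.075 and -0.073 with library totals made equal. The highest mean lay at 50 or 60 min for 43 of 79 members in CCNA-GFP (54.4%, and 44.7% of all genes), 57 of 81 in -IAA (70.4% and 66.2%) and 58 of 81 in +IAA (71.6% and 66.4%). In CCNA-GFP 30 of 79 members were highest at 90 min (38%, and 37.1% of all genes). These counts of highest means take no account of which replicates each stage holds. The CCNA-GFP level at 50 min is that of 1 library, and at equal totals the CTCF-AID counts at 50 or 60 min were 31 and 26. The share of all genes at equal totals is not given here, so these counts cannot be set against it.

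**Figure D1:**
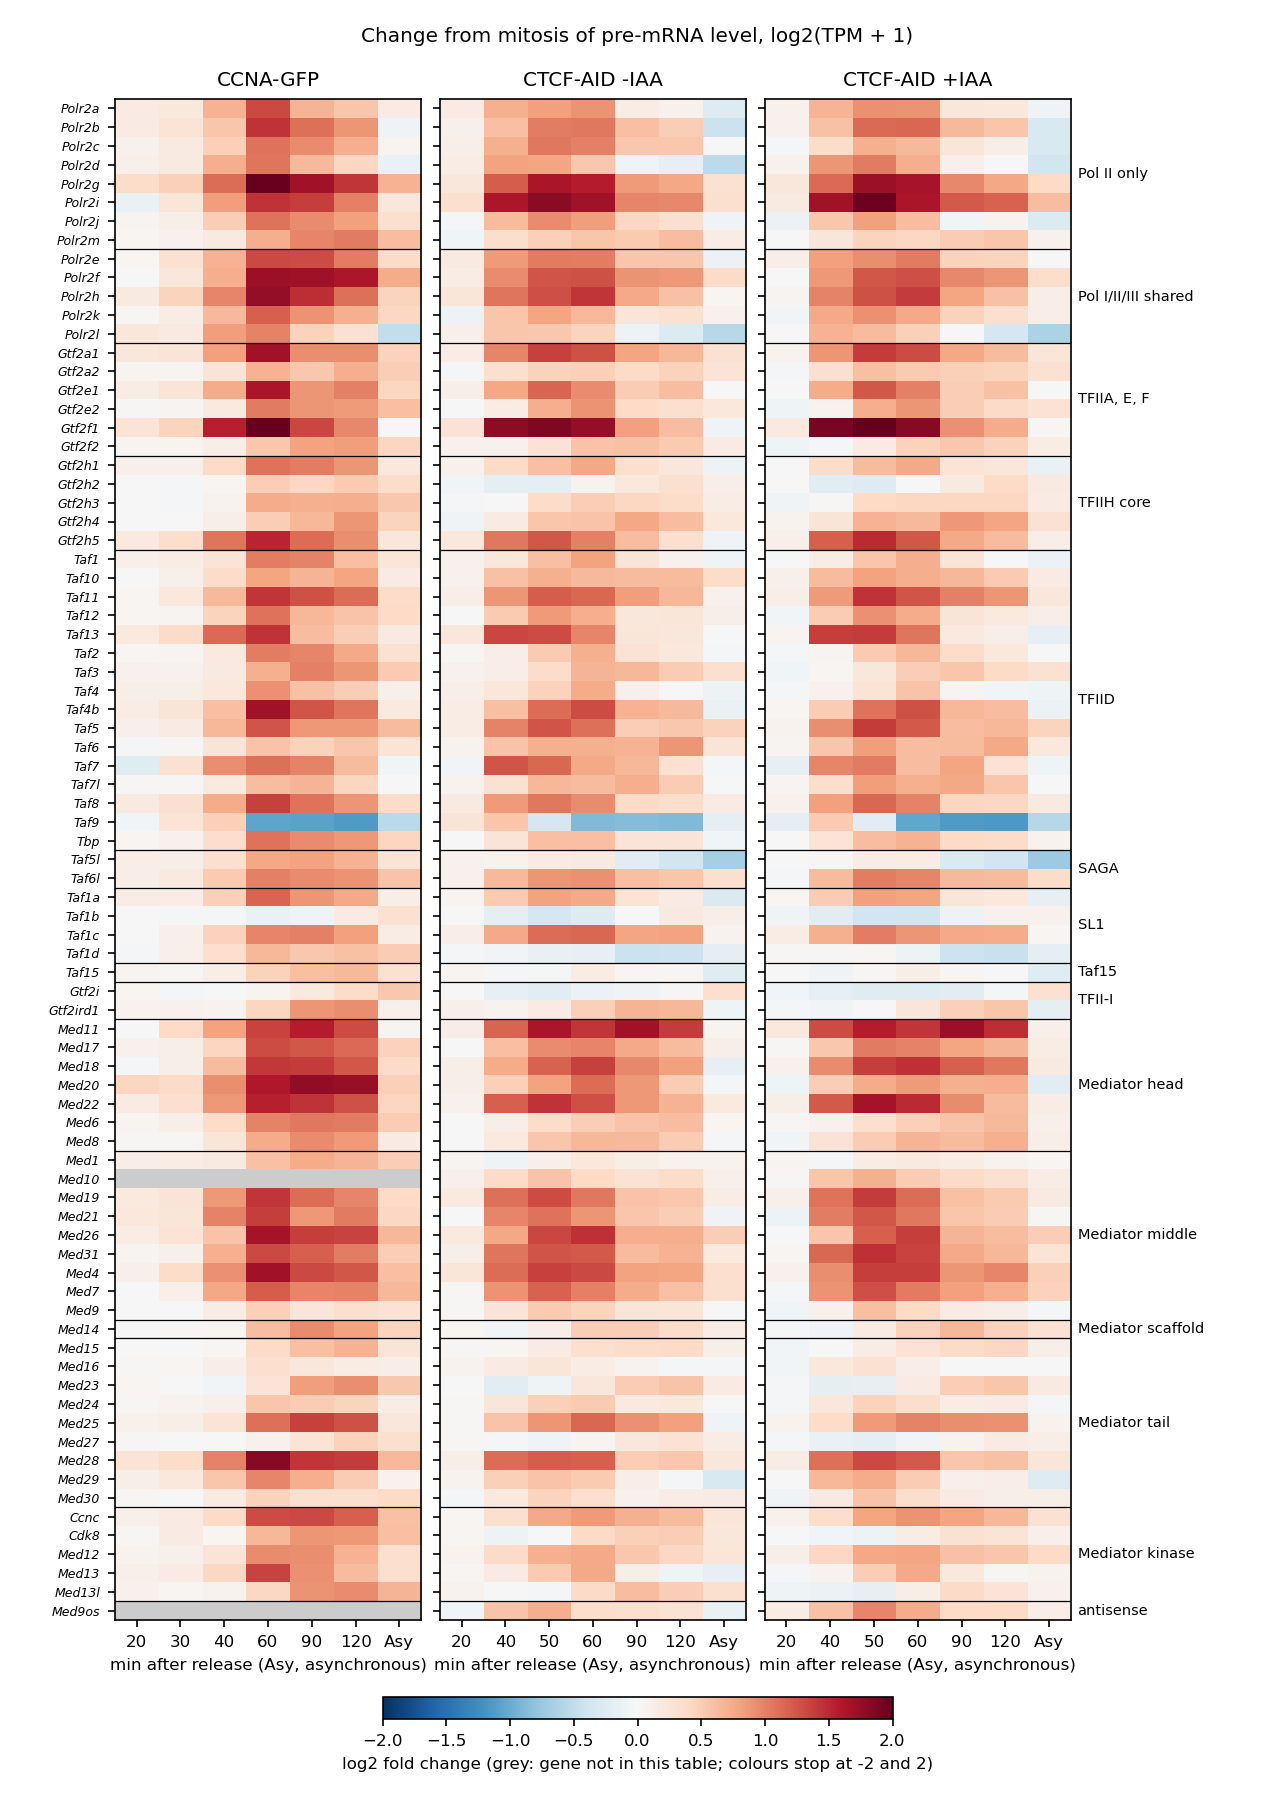
Change of pre-mRNA level from mitosis for each member (rows, grouped by complex) at each stage (columns) in CCNA-GFP, CTCF-AID -IAA and CTCF-AID +IAA cells, as the fitted log2 fold change of TPM + 1. Red is higher than in mitosis: 75 of 79, 72 of 81 and 68 of 81 members were called higher at 60 min on the deposited scale, while at equal library totals only 34, 35 and 34 were and 23, 27 and 27 were lower.

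All 13 polymerase II subunit genes were higher at 60 min than in mitosis in all 3 arms on the deposited scale, where 88.3%, 84.8% and 82.2% of all genes were. Of these, 8 are specific to polymerase II here (Polr2a, Polr2b, Polr2c, Polr2d, Polr2g, Polr2i, Polr2j and Polr2m, the last an accessory subunit), and 5 are shared with polymerases I and III (Polr2e, Polr2f, Polr2h, Polr2k and Polr2l). The median change of the specific subunits was 1.20, 0.95 and 0.81 in CCNA-GFP, -IAA and +IAA, and that of the shared ones 1.32, 1.03 and 1.03. With library totals made equal, 4, 4 and 3 of the 8 specific and 3, 2 and 2 of the 5 shared subunits were higher, where 36.4%, 39.4% and 40.7% of all genes were. Those lower numbered 1, 1 and 1 of the specific and 0, 1 and 1 of the shared subunits, where 33.3%, 31.1% and 33.2% of all genes were. At 40 min 7 of 8 specific subunits had risen in CCNA-GFP, with Polr2m the exception, and 8 of 8 in both CTCF-AID arms, where 49.3%, 63.3% and 58.7% of all genes had.

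Polr2a encodes the largest, catalytic subunit, whose tail recruits processing factors. It was at 4.46, 4.19 and 5.59 TPM in the mitotic CCNA-GFP libraries, 7.29 and 7.61 at 40 min, 14.1 in the library at 50 min, 12.2 and 11.7 at 60 min, and 6.09 and 7.16 at 120 min. The 60 min libraries lay above every mitotic and asynchronous library, the latter at 4.23, 4.93 and 7.59 TPM. The change to 60 min was 1.31 ± 0.14 (log2, SE; limma adjusted p = 2.1e-08) in CCNA-GFP, and 0.90 ± 0.16 and 0.90 ± 0.16 in the -IAA and +IAA arms (adjusted p = 1.5e-05 and 1.5e-05). In asynchronous CCNA-GFP cells Polr2a, at a mean of 5.58 TPM, ranked 4 of 79 by level. Polr2b, the other large catalytic subunit, went from 3.45, 1.99 and 3.68 TPM in mitosis to 11.7 and 6.61 at 60 min in CCNA-GFP, a change of 1.44 ± 0.13 (limma adjusted p = 4.4e-09).

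Among the subunits specific to polymerase II, Polr2g and Polr2i rose several-fold. Polr2g, which forms a stalk on the polymerase and spans 5.45 kb, was at 1.36, 0.963 and 1.38 TPM in mitotic CCNA-GFP cells and at 8.87 and 6.01 at 60 min, 6.03 times the mitotic mean. Its groups did not overlap, and the change was 2.01 ± 0.12 (limma adjusted p = 1.1e-10), with 1.57 and 1.64 in -IAA and +IAA. Polr2i, a small subunit of a 1.44 kb gene, was among the 3 least abundant members in asynchronous CCNA-GFP cells, at 0.580, 0.783 and 0.436 TPM. It rose from 0.383, 0.199 and 0.534 TPM in mitosis to 3.16 and 2.26 at 60 min, and in -IAA from 0.500, 0.0976 and 0.414 to 2.45 and 3.36. The log2 changes of Polr2i were 1.44, 1.68 and 1.64, and on the linear scale its means rose 7.28, 8.61 and 9.06 times. Of the shared subunits, Polr2h rose by 1.76, 1.42 and 1.40 and Polr2f by 1.71, 1.27 and 1.29.

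Polr2l, a small subunit shared by all 3 polymerases, was lower in asynchronous than in mitotic cells. In CCNA-GFP it was at 3.41, 2.52 and 3.51 TPM in mitosis, 6.85 and 6.75 at 60 min, 3.67 and 4.04 at 120 min, and 1.83, 1.77 and 2.27 in asynchronous cells. The asynchronous libraries, a separate population that was not arrested, lay below all mitotic ones, and those at 120 min above them. At 120 min the change from mitosis was 0.30 in CCNA-GFP, called as higher, and -0.28 and -0.34 in -IAA and +IAA, called as lower, and at equal totals -0.61, -0.72 and -0.80, called as lower in each. The difference between asynchronous and mitotic cells was -0.48 ± 0.11 in CCNA-GFP, -0.55 ± 0.09 in -IAA and -0.63 ± 0.09 in +IAA (limma adjusted p = 5.3e-04, 3.2e-05 and 5.1e-06). Polr2l was the only member called lower in asynchronous than in mitotic cells in all 3 arms.

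Among the general factors, Gtf2f1, the large subunit of TFIIF, which binds polymerase II directly, had the largest difference of log2(TPM + 1) at 60 min of all members in every arm on the deposited scale. On the linear scale its means rose 5.76, 4.31 and 4.62 times, less than those of Polr2i in each arm. In CCNA-GFP Gtf2f1 was at 1.64, 1.06 and 2.05 TPM in mitosis, 2.34 and 1.43 at 20 min, 5.87 and 5.92 at 40 min, 12.3 in the library at 50 min, 9.78 and 8.49 at 60 min and 3.63 and 3.47 at 120 min. Asynchronous cells had 1.36, 1.36 and 2.03 TPM, within the range of mitotic cells, and all libraries from 40 to 120 min lay above both. The change from mitosis at 40 min was 1.55 ± 0.14 (adjusted p = 9.3e-08, limma), that at 60 min 2.10 ± 0.14 (adjusted p = 1.3e-10), and the change from 60 to 120 min was -1.15 ± 0.14 (adjusted p = 1.0e-05). In -IAA the mitotic libraries were at 2.00, 1.07 and 2.15 TPM and those at 40 min at 7.26 and 7.97, and in +IAA at 1.77, 1.15 and 1.89 and at 7.74 and 8.06. The changes at 60 min were 1.76 ± 0.15 and 1.82 ± 0.15. Gtf2f2, which encodes the other TFIIF subunit from a gene of 114 kb, changed by 0.14 at 40 min and 0.54 at 60 min in CCNA-GFP, of which the first was not called.

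The promoter of Gtf2f1, at chr17:57011239-57011538 on the minus strand, is shown because its gene had the largest difference on that log2 scale. It and the promoters printed later come from RefSeq on GRCm38.p6, cover 250 bases before and 50 after the annotated start, and are written 5′ to 3′ along the gene, with matches to the motifs searched in capitals. Its capitals mark, in order, CRE, E-box, TATA, the CTCF core with T, ETS on the opposite strand, and the NRF1 core.
Gtf2f1: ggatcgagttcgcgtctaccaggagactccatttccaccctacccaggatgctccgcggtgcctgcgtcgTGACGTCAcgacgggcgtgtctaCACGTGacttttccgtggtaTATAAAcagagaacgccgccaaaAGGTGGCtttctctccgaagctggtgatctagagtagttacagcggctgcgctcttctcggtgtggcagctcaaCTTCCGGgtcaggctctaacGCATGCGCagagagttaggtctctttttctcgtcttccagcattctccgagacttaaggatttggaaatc

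The counts of the other general factors at 60 min stand beside those of all genes, of which 88.3%, 84.8% and 82.2% were higher on the deposited scale, and 36.4%, 39.4% and 40.7% higher and 33.3%, 31.1% and 33.2% lower at equal totals. All 6 listed genes of TFIIA, TFIIE and TFIIF were higher at 60 min in every arm on the deposited scale, with medians of 1.33, 0.92 and 0.94, and at equal totals 4, 4 and 4 were higher and 2, 2 and 2 lower. Gtf2a1, the large TFIIA subunit, changed by 1.68, 1.27 and 1.31, while Gtf2a2, the small one and the third most abundant member in asynchronous cells at 6.57 TPM, changed by 0.69, 0.48 and 0.52. Gtf2e1 changed by 1.63, 0.95 and 1.00. Of the 5 core TFIIH genes, whose complex opens promoter DNA and repairs damage, 5, 4 and 4 rose, and at equal totals 1, 2 and 2 were higher and 1, 2 and 2 lower. Gtf2h5, the smallest subunit, changed by 1.52, 1.02 and 1.24, and Gtf2h2 by 0.49, 0.08 and -0.01, called in CCNA-GFP only.

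Of 16 TFIID genes 15 rose at 60 min in each arm on the deposited scale (88.3%, 84.8% and 82.2% of all genes), with medians of 1.05, 0.73 and 0.72. At equal totals 7, 7 and 6 of them were higher (36.4%, 39.4% and 40.7% of all genes) and 2, 2 and 2 lower (33.3%, 31.1% and 33.2%). The counts of higher genes include Taf7l, which was listed through its levels after release, so its part in them is no test of a rise. Tbp was at 1.81, 1.49 and 2.45 TPM in mitotic CCNA-GFP cells, 5.67 and 3.71 at 60 min and 2.52, 2.37 and 3.89 in asynchronous cells. Its change to 60 min was 1.09 ± 0.12 (limma adjusted p = 3.5e-08) in CCNA-GFP, 0.60 ± 0.09 in -IAA and 0.70 ± 0.09 in +IAA, and the 60 min range overlapped that of asynchronous but not of mitotic cells. Taf1, the largest TFIID subunit, changed by 1.03, 0.80 and 0.73. The histone-fold subunits Taf11 and Taf13 changed by 1.43 and 1.44 in CCNA-GFP. Taf13 was early, with 1.13, 1.34 and 1.38 at 40 min. Taf4b, a paralog of Taf4 known from germ cells, changed by 1.69, 1.30 and 1.27, and Taf4 itself by 0.91, 0.74 and 0.57. Taf7l, a paralog of Taf7 best known from testis, was among the lowest members, at 0.0697, 0.0332 and 0.0562 TPM in mitosis and 0.0290, 0.0461 and 0.0581 in asynchronous CCNA-GFP cells. Taf7l reached 0.875 and 0.389 TPM at 60 min and 0.757 and 0.710 at 90 min, a fitted change of 0.62 ± 0.08 at 60 min. Its asynchronous mean lay below the 0.5 TPM needed for listing, so it was listed through its levels after release. Its rise is thus part of what selected it, and no test of the rise is given. In CTCF-AID, where its asynchronous level was also below 0.5 TPM, it changed by 0.64 and 0.71, with the same limit.

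Taf9, a TFIID and SAGA subunit, went the other way. It was at 1.85, 0.631 and 1.10 TPM in mitotic CCNA-GFP cells and at 1.97 and 2.11 at 40 min, then at 0 and 0.106 at 60 min and listed at 0 in both libraries at 90 and at 120 min. In -IAA it was listed at 0 in every library from 60 to 120 min, and in +IAA in every one but the second at 60 min, at 0.172. Polr2a was above 4 TPM in every library, and the only other member listed at 0 anywhere was Med9os, in 4 libraries of mitotic or asynchronous CTCF-AID cells. The fitted change at 60 min was -1.05 ± 0.22, -0.88 ± 0.22 and -1.04 ± 0.22 (limma adjusted p = 1.6e-04, 6.5e-04 and 1.2e-04), which is no bound on a fold. Taf9 (chr13:100651579-100656060, plus strand) lies wholly within the span of Ak6 (chr13:100650979-100666359), an adenylate kinase gene on the same strand, so that reads over Taf9 can be assigned to either pre-mRNA and the value is uncertain. Ak6 was at 2.33, 2.76 and 3.26 TPM in mitosis and at 8.22 and 6.33 at 60 min in CCNA-GFP, a change of 1.24 ± 0.14. How reads were divided between them was not tested.

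**Figure D2:**
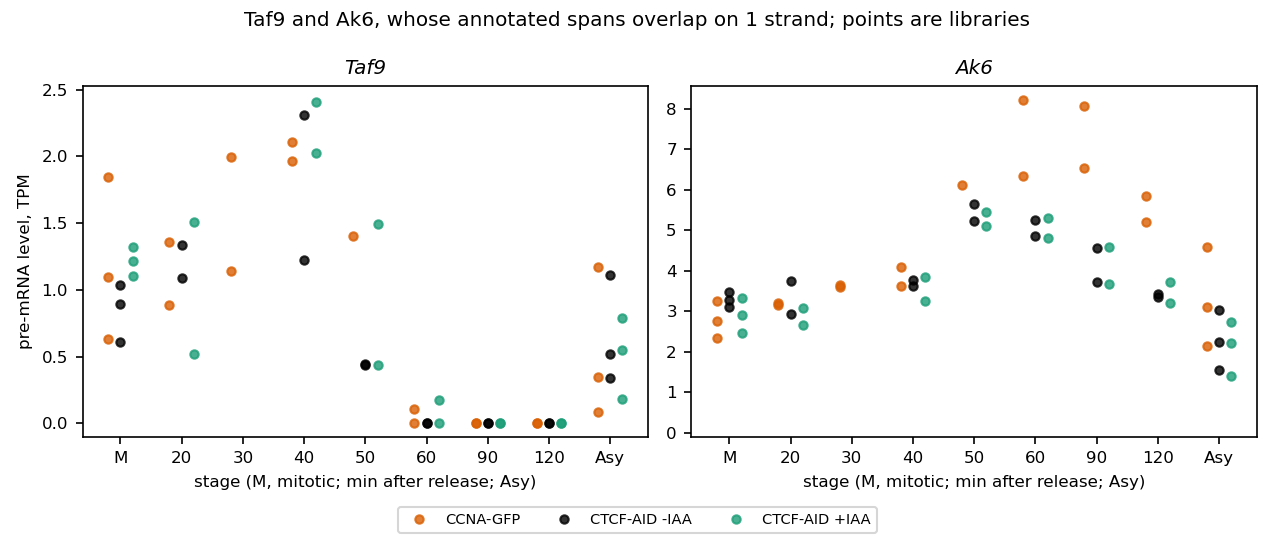
Pre-mRNA level in TPM of Taf9 (left) and of Ak6 (right) at each stage, with 1 point per library and colours for CCNA-GFP, CTCF-AID -IAA and CTCF-AID +IAA. Taf9 was between 0 and 0.172 TPM in every library at 60 min and listed at 0 in all at 90 and 120 min, where Ak6 was above 3 TPM.

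Some genes named as TAFs belong to other complexes. Of the 4 TAFs of SL1, the polymerase I promoter factor, 3 rose in CCNA-GFP and 2 in each CTCF-AID arm, where 88.3%, 84.8% and 82.2% of all genes did. At equal totals 0, 1 and 1 of them were higher (36.4%, 39.4% and 40.7% of all genes) and 2, 2 and 2 lower (33.3%, 31.1% and 33.2%). Taf1b was at 0.697, 0.631 and 0.928 TPM in mitotic CCNA-GFP cells and 0.571 and 0.460 at 60 min. It changed by -0.14 ± 0.08, -0.25 ± 0.05 and -0.37 ± 0.05 (limma adjusted p = 0.12, 9.7e-05 and 5.0e-07), and was highest in asynchronous cells in every arm. Taf1d was the most abundant member, at 24.9, 28.8 and 28.4 TPM in asynchronous CCNA-GFP cells, and 8 small nucleolar RNA genes lie in its span of 10.8 kb on the same strand. It changed by 0.67, -0.16 and -0.10 at 60 min, of which only the first was called. Taf15, an RNA-binding protein that is the second most abundant member at 11.6 TPM, changed by 0.47, 0.15 and 0.13, of which only the first was called. Of the SAGA subunits, Taf6l rose by 1.01, 0.91 and 0.98, and Taf5l by 0.78 in CCNA-GFP with uncalled changes of 0.18 and 0.15 in the CTCF-AID arms.

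Gtf2i shares its name with the general factors but encodes TFII-I, a signal-responsive regulator. Its mitotic libraries in CCNA-GFP were at 1.92, 1.79 and 2.31 TPM, those at 60 min at 2.17 and 1.66, and the asynchronous ones at 2.93, 2.74 and 4.71. The mitotic and 60 min groups overlapped and the asynchronous libraries lay above both. Changes at 60 min were 0.06 ± 0.11, -0.11 ± 0.10 and -0.24 ± 0.10 (limma adjusted p = 0.62, 0.29 and 0.026), and the first turned to -0.05 without the block. Gtf2i and Taf1b were the members with their highest mean in asynchronous cells in every arm.

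Mediator genes were taken by module, with changes on the deposited scale first, on which 88.3%, 84.8% and 82.2% of all genes were higher at 60 min. All 7 head genes rose at 60 min in every arm, with medians of 1.34, 1.11 and 1.00, as did 8 of 8 middle genes in CCNA-GFP and 8 of 9 in each CTCF-AID arm, with medians of 1.35, 1.00 and 1.06. Of 9 tail genes 8, 8 and 7 rose, with medians of 0.46, 0.34 and 0.35. The 5 kinase module genes had medians of 0.94, 0.75 and 0.76, with 5, 5 and 3 called. At equal totals, where 36.4%, 39.4% and 40.7% of all genes were higher and 33.3%, 31.1% and 33.2% lower, 5, 5 and 4 head genes were higher and 0, 1 and 1 lower, and 5, 5 and 6 middle genes were higher and 2, 2 and 2 lower. For the tail the direction turned, with 1, 2 and 2 higher and 6, 7 and 7 lower. In the kinase module 3, 2 and 2 were higher and 2, 2 and 2 lower. Modules hold few genes, and their difference was not tested. The counts of higher middle genes on the deposited scale in CTCF-AID include Med10, which was listed through its levels after release.

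Of the head, Med22 was at 1.22, 0.897 and 1.46 TPM in mitotic CCNA-GFP cells and 6.05 and 4.28 at 60 min, a change of 1.56 ± 0.13 (limma adjusted p = 1.5e-09), with 1.29 and 1.5 in the CTCF-AID arms. Med11, a small head subunit, and Med20, whose span overlaps the coding gene Gm20517 on the same strand so that its values are uncertain, changed by 1.34 and 1.60 in CCNA-GFP, with changes from mitosis of 1.31 and 1.74 at 120 min. In the middle module, Med26, which links Mediator to elongation factors, changed by 1.66, 1.45 and 1.38, and Med4 by 1.68, 1.32 and 1.39. Med1, the subunit that contacts nuclear receptors, was at 1.95, 1.63 and 2.36 TPM in mitosis and 3.96 and 2.44 at 60 min in CCNA-GFP, a change of 0.59 ± 0.13 (limma adjusted p = 2.5e-04). In CTCF-AID it changed by 0.21 and 0.18, neither called. Med10, listed in CTCF-AID only, was at 0.130, 0.0976 and 0.155 TPM in mitosis and 0.427 and 0.511 at 60 min in -IAA, and at 0.0639, 0.0980 and 0.113 and 0.590 and 0.492 in +IAA. Med9os was at 0.157 and 0.682 TPM at 60 min in -IAA and 0.454 and 0.862 in +IAA. Med10 and Med9os were also below 0.5 TPM in asynchronous cells, and so were listed through their levels after release.

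Med14, the scaffold that joins head, middle and tail, was not yet raised at 40 min. It was at 0.871, 1.20 and 0.984 TPM in mitotic CCNA-GFP cells, 1.00 and 1.16 at 40 min, 2.32 and 1.87 at 60 min and 2.63 and 2.92 at 90 min. The 40 min libraries lay within the mitotic range and those from 60 min above it, with changes of 0.05 ± 0.11 at 40 min and 0.62 ± 0.11 at 60 min (limma adjusted p = 0.76 and 3.7e-05). In the tail, Med28 rose by 1.82 ± 0.13 at 60 min in CCNA-GFP (limma adjusted p = 2.5e-10), from 1.57, 1.20 and 1.94 TPM to 8.68 and 5.98. Med23 was at 1.46, 1.43 and 1.80 TPM in mitosis, 2.36 and 1.56 at 60 min, and 4.00 and 3.32 at 120 min in CCNA-GFP. Its change was 0.27 ± 0.11 at 60 min and 0.93 ± 0.11 at 120 min (limma adjusted p = 0.025 and 2.2e-07), and from 60 to 120 min it changed by 0.66, 0.34 and 0.40 in the 3 arms (adjusted p = 2.2e-04, 0.0030 and 7.8e-04). Med27 changed by 0.09, 0.05 and -0.06 at 60 min, none of them called. Of the kinase module, Cdk8, the kinase, changed by 0.66 ± 0.14, 0.39 ± 0.12 and 0.15 ± 0.12 (limma adjusted p = 2.3e-04, 0.0038 and 0.24), and its cyclin partner Ccnc by 1.30, 0.86 and 0.90. Med12, which activates the kinase, went from 0.244, 0.266 and 0.281 TPM to 1.37 and 1.34 in CCNA-GFP, a change of 0.94 ± 0.08. At such levels the 1 added to TPM shrinks this change.

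**Figure D3:**
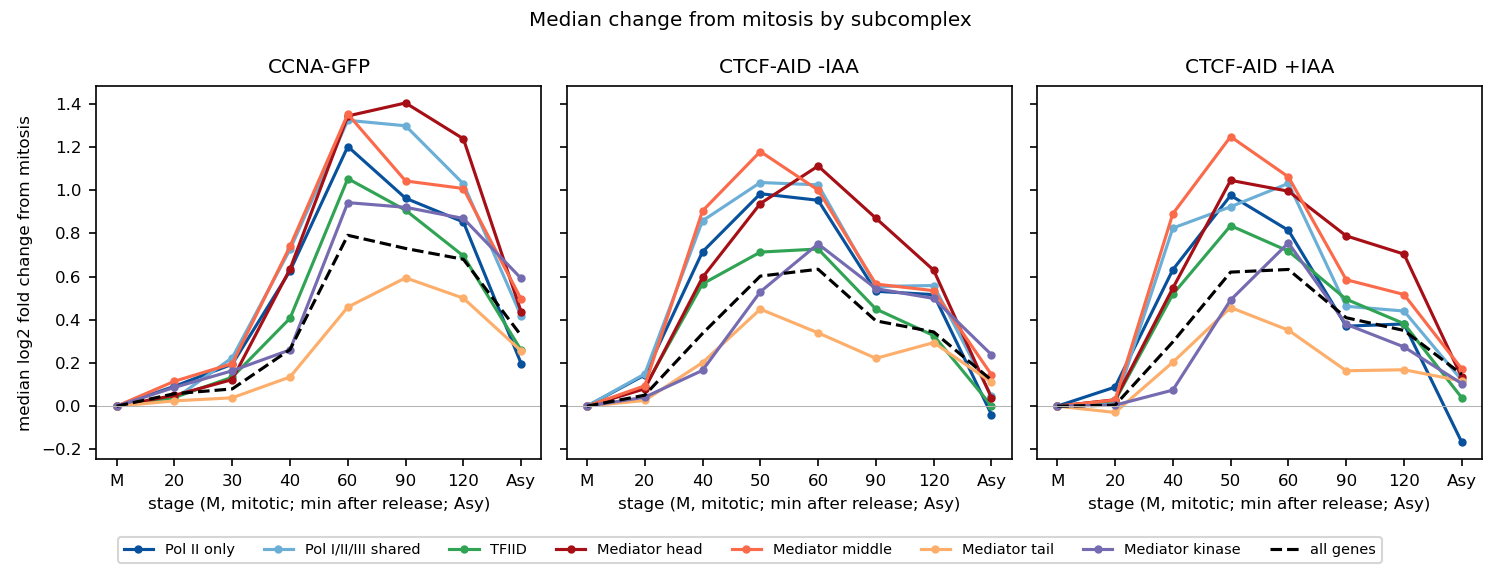
Median difference of log2(TPM + 1) from mitosis (y axis, labelled as log2 fold change) of the genes of 7 subcomplexes at each stage (x axis) in the 3 arms. The median of all genes is dashed. At 60 min the head and middle modules of Mediator stood at 1.34 and 1.35 in CCNA-GFP and the tail at 0.46, with all genes at 0.79. At equal library totals the median of all genes at 60 min is 0.02 and that of the tail -0.24.

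Since most genes were higher at 60 min than in mitosis, the libraries were also scaled to equal listed totals, which asks whether a member rose more or less than the total. This moved the median of all genes at 60 min from 0.79, 0.63 and 0.63 to 0.02, 0.06 and 0.06, and dividing each library by its own multiplier gave 0.36, 0.43 and 0.39. The members' median moved from 1.08, 0.75 and 0.73 to 0.11, 0.083 and 0.10, and to 0.55, 0.54 and 0.47 with the multiplier. Each rescaling uses 1 factor per library, the same for members and other genes. At equal totals 34 of 79, 35 of 81 and 34 of 81 members were higher at 60 min than in mitosis, where 36.4%, 39.4% and 40.7% of all genes were. Those lower numbered 23, 27 and 27, where 33.3%, 31.1% and 33.2% of all genes were. The shares of the members, 43.0%, 43.2% and 42.0% higher and 29.1%, 33.3% and 33.3% lower, were near those of all genes.

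Of the 79 shared members, 28 were called higher in all 3 arms at equal totals (35.4%, and 29.9% of the 9574 genes in both tables) and 22 lower (27.8%, and 25.2%). Taf7l, listed through its levels after release, is among the 28. The rises were led by Polr2i, Gtf2f1, Polr2g, Med22 and Polr2h, with mean changes over the arms of 1.08, 1.07, 0.93, 0.75 and 0.70. The Mediator genes among the 28 were Med11, Med17, Med18 and Med22 of the head, Med4, Med19, Med26 and Med31 of the middle, Med28 of the tail, and Med12 and Ccnc of the kinase module. Those lower were led by Taf9, Taf1d, Gtf2i, Taf15 and Taf1b, at -1.36, -0.94, -0.88, -0.80 and -0.74, and the Mediator genes among the 22 were Med15, Med16, Med23, Med24, Med27 and Med30 of the tail, Med1 and Med9 of the middle, Med13l and Cdk8 of the kinase module, and the scaffold Med14. The difference between modules was not tested. Polr2a, at 0.12, -0.02 and -0.03, was not called in any arm (limma adjusted p = 0.22, 0.88 and 0.85). Its rise on the deposited scale thus did not pass the test once totals were made equal.

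More short than long members were called at 40 min, as among all genes. At that time, 25 of 29 members under 10 kb were higher than in mitosis in CCNA-GFP, with a median change of 0.72, while 7 of 25 at 30 kb or more were, with a median of 0.18. Among all genes 1853 of 2480 under 10 kb and 941 of 3973 at 30 kb or more were higher. In -IAA 28 of 30 short and 6 of 25 long members were higher, where 2168 of 2543 and 1601 of 4078 of all genes were. In +IAA 30 of 30 and 6 of 25 members were, with 2143 of 2543 and 1287 of 4078 among all genes. At 60 min 22 of the 25 long members were higher in CCNA-GFP, where 3168 of 3973 of all long genes were, and at 120 min 24, where 3458 of 3973 were. In -IAA 19 and 18 of the 25 were higher at these times, where 3072 and 2580 of 4078 long genes were. In +IAA 15 and 15 were, where 2861 and 2399 of 4078 were. Spearman's rho between gene length and change was -0.62 at 40 min and -0.36 at 60 min over the 79 members in CCNA-GFP, and -0.54 and -0.37 over 9900 genes. In -IAA it was -0.65 and -0.34 over the members and -0.59 and -0.37 over all genes with a length, and in +IAA -0.73 and -0.41 over the members and -0.63 and -0.42 over all. A pre-mRNA value averages over the whole gene, whose part in this was not tested, and the genes share their libraries. Length differs between the modules: the head genes have a median span of 6.45 kb, the tail genes 18.2 kb and the kinase module genes 71.6 kb.

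**Figure D4:**
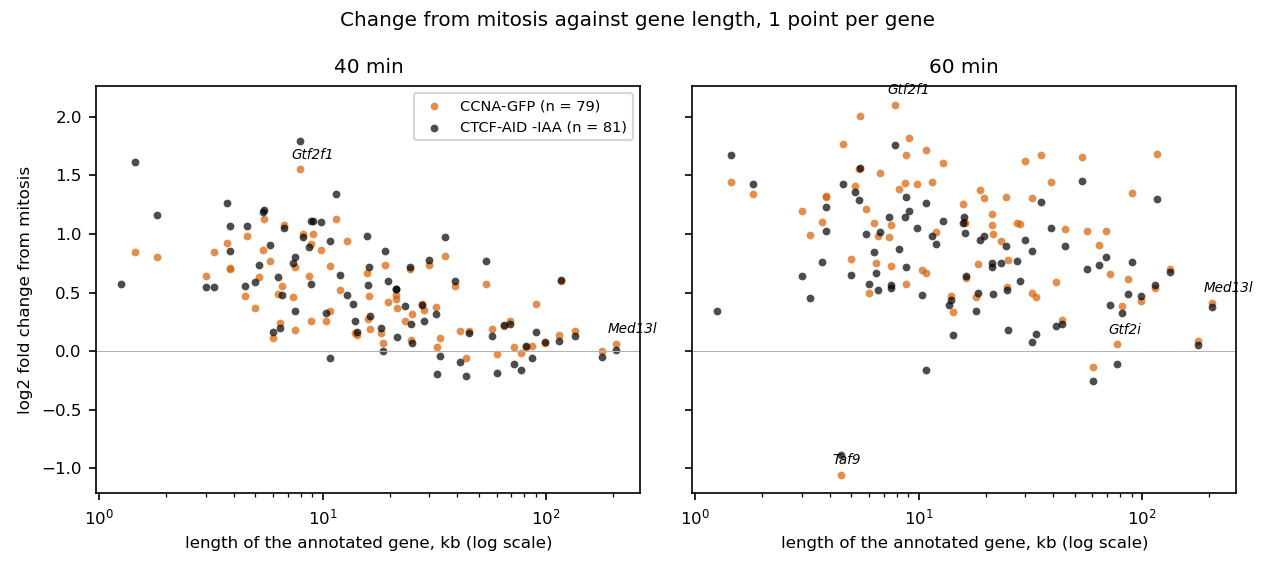
Difference of log2(TPM + 1) from mitosis (y axis, labelled as log2 fold change) at 40 min (left) and 60 min (right) against the length of the annotated gene in kb (x axis, log scale). There is 1 point per member, for CCNA-GFP (n = 79) and CTCF-AID -IAA (n = 81). Spearman's rho was -0.62 and -0.65 at 40 min and -0.36 and -0.34 at 60 min, on the deposited scale, at which values sit above those at equal totals.

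Asynchronous cells were set against mitotic cells. On the deposited scale 54 of 79 members were higher in asynchronous than in mitotic cells in CCNA-GFP (70.4% of all genes), 19 of 81 in -IAA (34.3%) and 20 of 81 in +IAA (40.9%). Those lower numbered 2, 7 and 9, where 1.97%, 5.25% and 5.89% of all genes were. Without replicate 3 the CCNA-GFP and +IAA counts of lower members were 1 and 3. Settings moved the counts of higher members: without the block 36, 2 and 5 were higher, the -IAA count was 12 without replicate 2 and 3 without replicate 3, the +IAA count was 13 without replicate 3, and with each library divided by its multiplier they were 61, 44 and 48. Shares of all genes without the block, without a replicate or with the multiplier divided out are not given here, so these counts do not set the members apart from other genes. At equal totals 18, 12 and 15 members were higher, where 24.8%, 27.2% and 29.8% of all genes were, and 20, 26 and 28 lower, where 20.3%, 21.4% and 22.4% were. Without replicate 1 these were 3, 6 and 8 higher and 3, 16 and 17 lower, and without replicate 3 they were 8 and 6 higher in CCNA-GFP and -IAA and 10 lower in CCNA-GFP.

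Besides Polr2l, Polr2b and Polr2d, a stalk subunit, were called lower in asynchronous cells in both CTCF-AID arms (Polr2b -0.43 and -0.31; Polr2d -0.53 and -0.37), and Polr2c and Polr2j in +IAA (-0.31 and -0.27). In CCNA-GFP these 4 changed by -0.08, -0.13, 0.05 and 0.33, with only Polr2j called, as higher. Taf5l was at 8.74, 8.13 and 10.9 TPM in mitotic -IAA cells and 5.06, 4.61 and 6.89 in asynchronous ones, with no overlap, a difference of -0.66 ± 0.08 (limma adjusted p = 2.2e-06). In +IAA it was -0.73 ± 0.08, and in CCNA-GFP 0.27 ± 0.11, called as higher. Med29 (-0.30 and -0.26) and Taf15 (-0.25 and -0.25) were called in both CTCF-AID arms, Taf1a in -IAA (-0.29) and Taf9 in CCNA-GFP and +IAA (-0.54 and -0.57). The lines were normalized in separate tables and the difference between them was not tested.

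Set against asynchronous cells, the 60 min levels were high. On the deposited scale 59 of 79 members were higher at 60 min in CCNA-GFP (67% of all genes), 71 of 81 in -IAA (75.2%) and 69 of 81 in +IAA (72.2%), and 5, 3 and 3 were lower (8.6%, 7.06% and 8.24%). At equal totals 45, 42 and 42 members were higher, where 35%, 37.5% and 36.9% of all genes were, and 21, 21 and 22 lower, where 35.2%, 32.9% and 33.9% were. As shares of the members, 57.0%, 51.9% and 51.9% were higher at equal totals, above those of all genes in each arm. Gtf2f1 exceeded its asynchronous level by 2.10 ± 0.14, 1.84 ± 0.15 and 1.80 ± 0.15 on the deposited scale, Polr2l by 1.47, 1.00 and 1.11, and Polr2a by 1.14, 1.16 and 0.97. Gtf2i and Taf1b were lower in all 3 arms.

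IAA was compared over the same stages. In the +IAA arm exposure to IAA grew with time after release, so effects of stage and of exposure cannot be told apart. The design compares +IAA with -IAA at each stage, with no block, a call at an adjusted p under 0.1 and an absolute log2 fold change over 0.2. Since IAA acts on the CTCF protein, the Ctcf pre-mRNA, at 6.54, 6.10 and 9.13 TPM in asynchronous -IAA cells and 7.52, 7.77 and 10.9 in +IAA cells, does not check the depletion. No member was called in mitosis or at 20, 40, 50, 60, 90 or 120 min, where 0%, 0%, 0%, 0.283%, 0.225%, 0.733% and 0.586% of all genes were. At an unadjusted p under 0.05 limma gave 0, 1, 2, 1, 1, 2 and 1 members, and 0, 6, 3, 1, 4, 2 and 3 with the replicate block. In asynchronous cells 1 of 81 members was called, where 1.01% of all genes were. Counting calls in asynchronous cells, or at 2 or more times of release, it was again 1 of 81, where 1.1% of all genes were, and with the replicate block 1 of 81, where 2.63% were. The member was Polr2c in each case. The count-based test of the study, with the same thresholds, called more genes than the 113 of 10237 called here without the block. Without replicate 1, 2 or 3 in turn, and without the block, 0 members were called over those stages.

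Polr2c encodes a subunit of the assembly platform of polymerase II and lies at chr8:94857450-94873535 on the plus strand. Asynchronous -IAA libraries were at 1.73, 1.26 and 2.02 TPM and +IAA libraries at 0.905, 0.809 and 1.03, with no overlap. The difference was -0.47 ± 0.12 (limma adjusted p = 0.090), and with the replicate block the adjusted p was 8.7e-04. At 60 min the libraries were at 4.12 and 4.09 TPM without IAA and 2.50 and 2.59 with it, and at 120 min at 2.49 and 2.85 and at 1.43 and 1.44. The differences, -0.53 and -0.59, had adjusted p of 0.37 and 0.11 without the block and 0.0056 and 9.4e-04 with it. With the block Polr2c was also called at 50 and 90 min (-0.51 and -0.47, adjusted p = 0.0074 and 0.0099), and not in mitosis, at 20 or at 40 min (-0.17, -0.33 and -0.52, adjusted p = 1, 0.97 and 0.10). With the block 0%, 0% and 0.0195% of all genes were called in mitosis, at 20 and at 40 min, then 0.987%, 1.01%, 1.71% and 1.43% at 50, 60, 90 and 120 min, and 2.43% in asynchronous cells. The +IAA library was the lower one in 18 of 18 replicate-matched pairs over all stages. In the fit without the block, the adjusted p in asynchronous cells depended on the libraries used, at 1, 0.21 and 0.66 without replicates 1, 2 and 3. The difference was then -0.45, -0.54 and -0.42 over 2 libraries a group. Fits with the block and a replicate left out are not given here. Over the alternatives the adjusted p ran from 0.00087, with the block, to 1.

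Polr2j, another subunit of that platform and the heterodimer partner of Polr2c, was at 3.53 and 4.50 TPM at 90 min without IAA and at 2.31 and 2.74 with it, with no overlap. The difference was -0.50 (limma adjusted p = 0.98, and 0.029 with the replicate block). It was lower with IAA in 17 of 18 pairs, as were Med13l and Taf1c, and Polr2h in 16 of 18, and the 18 pairs come from 3 replicates and are not independent. The differences of Polr2j were -0.26 at 60 min, -0.29 at 120 min and -0.24 in asynchronous cells, none called with or without the block. Polr2a, the catalytic subunit, differed by 0.00 ± 0.34 at 60 min and 0.20 ± 0.28 in asynchronous cells, and Tbp by 0.02 at 60 min. These SE are without the block, with which those of Polr2a were 0.17 and 0.14. These members' change from mitosis to 60 min was not shown to depend on IAA: the interaction was called for 0 of 81 members, where 0.156% of all genes were, with 1 member at an unadjusted p under 0.05 (0 without the block).

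**Figure D5:**
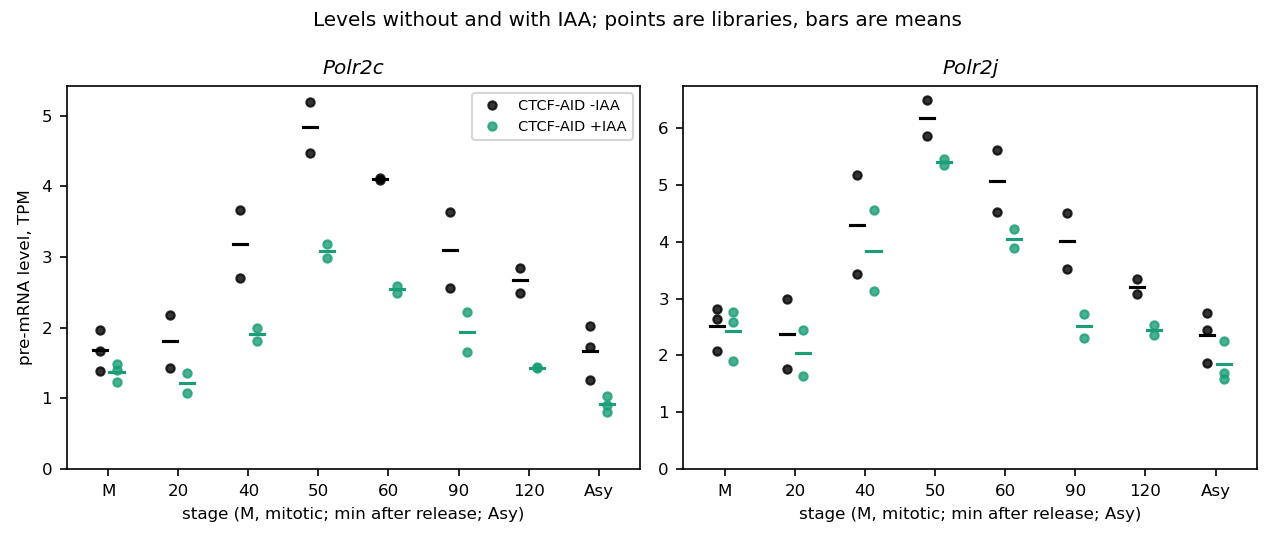
Pre-mRNA level in TPM (y axis) of Polr2c (left) and Polr2j (right) at each stage (x axis) without and with IAA, with 1 point per library and a bar at each mean. Polr2c was lower with IAA in 18 of 18 matched pairs and Polr2j in 17 of 18, the latter as often as Med13l and Taf1c. For Polr2j in mitosis the difference of -0.04 turned to 0.01 when each library was divided by its multiplier.

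The promoters of Polr2c and Polr2j are shown because IAA acts on CTCF, a factor that binds DNA at a long motif. That of Polr2c lies at chr8:94857200-94857499 and that of Polr2j at chr5:136116441-136116740, both on the plus strand. In Polr2c the capitals mark, in order, CCAAT at bases 20 and 178 on either side of a match to the TATA box, then a CTCF consensus at bases 240 to 252 (the start of the gene follows base 250), and ETS. In Polr2j they mark the CTCF core with T, the NRF1 core, the CTCF core overlapping a GC box, CCAAT on the opposite strand, and ETS.
Polr2c: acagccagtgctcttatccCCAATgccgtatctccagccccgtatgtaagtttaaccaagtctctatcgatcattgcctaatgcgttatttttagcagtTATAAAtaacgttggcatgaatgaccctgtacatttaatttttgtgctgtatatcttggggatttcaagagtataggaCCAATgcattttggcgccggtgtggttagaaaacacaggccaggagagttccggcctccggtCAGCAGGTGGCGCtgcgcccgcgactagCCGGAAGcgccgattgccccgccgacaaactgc
Polr2j: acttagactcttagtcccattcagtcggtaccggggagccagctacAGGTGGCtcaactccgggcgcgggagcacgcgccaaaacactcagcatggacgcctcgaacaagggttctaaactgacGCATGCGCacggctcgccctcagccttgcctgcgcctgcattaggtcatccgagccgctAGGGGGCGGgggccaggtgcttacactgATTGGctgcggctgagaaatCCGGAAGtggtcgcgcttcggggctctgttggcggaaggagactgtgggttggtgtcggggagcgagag

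Motifs were counted on both strands in the promoters of the 70 members that the RefSeq table holds, of 8459 genes listed in the data, members included, and of all 32851 promoters in the table. Of the 70 members, 14 have 2 promoters there. The first 2 shares are per gene and the third is per promoter, so they are not alike. Gtf2e2, Med8, Med23, Med24, Med30, Polr2d, Polr2g, Polr2k, Taf2, Taf4b and Taf7 are the 11 without a promoter there. ETS (CCGGAAG) was found for 34.3% of the members, 21.5% of listed genes and 8.86% of all promoters. The E-box (CACGTG) was found for 20.0%, 12.7% and 7.15%, the NRF1 core (GCATGCGC) for 11.4%, 6.69% and 2.71%, and the YY1 core (AAGATGGC) for 8.57%, 5.75% and 2.75%. The TATA box, searched as TATAAA, was found for 17.1%, 7.98% and 13.6%, and the cyclic AMP element CRE (TGACGTCA) for 4.29%, 4.01% and 1.79%. CCAAT was found for 37.1%, 43.9% and 37.4%, and the GC box (GGGCGG) for 72.9%, 71.0% and 35.7%. The CTCF core (AGGGGGC) was found for 10.0%, 20.0% and 10.6%, and Polr2c did not hold those letters. Seeing its promoter led to a further search, with the CTCF core with T (AGGTGGC) in 11.4%, 7.96% and 6.15%, and a CTCF consensus of 13 letters in 1.43%, 0.78% and 0.551%. Polr2c was the 1 member of 70 with the consensus. The last search was chosen after the values and the sequence were seen, it is a match of letters, and CTCF binding at Polr2c was not analysed here.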

How the data were processed

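Ribosome-depleted, stranded RNA-seq libraries of CCNA-GFP and CTCF-AID ES cells were used as deposited. Values are TPM of pre-mRNA, which the authors estimated with STAR and RSEM on mm10 and Gencode vM12 with an unspliced isoform added for each gene (tool versions are not given in the sources used here), and which they kept for genes with a mean over 0.5 TPM in asynchronous cells or at 2 or more post-mitotic times. Read counts were not used here, so the count-based test of the study was replaced by limma, and TPM leave depth unknown. Each deposited library also carries its own multiplier, read from the step between its low values, which no source names.

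Stages were compared within each table on log2(TPM + 1) with limma 3.58.1 in R 4.3.3, blocked on replicate number, and called at a Benjamini-Hochberg adjusted p under 0.05 over all genes. For +IAA against -IAA no block was used, and calls needed an adjusted p under 0.1 and an absolute log2 fold change over 0.2. The fits were tested on simulated data. Replicates are independent experiments per the methods of the study. Same-numbered libraries deviated together in 20 of 20 pairs of CCNA-GFP groups (lowest r 0.203, median 0.518) and 88 of 88 of CTCF-AID (lowest 0.218, median 0.523), so the numbers pair the libraries. Replicates within a group had Spearman's rho of 0.918 to 0.984 and 0.933 to 0.984. Other steps used matplotlib 3.10.9 for figures, and scipy 1.17.1, pandas 2.3.3 and numpy 2.4.6 under python 3.11.15. Gene positions are from Gencode vM21 on GRCm38 (81 of 81 symbols), and promoters from RefSeq on GRCm38.p6.

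The members, gene lists and tests were chosen with earlier results of these data known. Genes named by rule were Polr2a, Polr2b, Tbp, Taf1, Med1, Med14, Med12, Cdk8 and Ccnc, the 5 largest and 5 smallest changes at 60 min in CCNA-GFP, up to 5 per direction called at equal totals in all arms, those lower in asynchronous than in mitotic cells or called for IAA, those highest in asynchronous cells in every arm, those in 1 table only, and the 3 highest and 3 lowest levels. Any other member named was chosen after its values were seen. Alternatives were a pseudocount of 0.1, a mean of at least 1 TPM, leaving out each replicate, the block removed or added, other scalings, and division by the multiplier.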

Additional observations from a re-analysis of the deposited data

How the results depend on the processing

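Without the replicate block, which the pairing of the libraries allows, the members lower at 120 than at 60 min numbered 11 in CCNA-GFP and 31 in -IAA. In asynchronous against mitotic cells at equal totals there were then 7, 6 and 9 members higher in CCNA-GFP, -IAA and +IAA, and 13 and 16 lower in CCNA-GFP and -IAA. With the block added, the IAA comparison again called 1 member. Dividing each library by its multiplier gave 13 members lower at 120 than at 60 min in CCNA-GFP and 0 called for IAA, and so did a mean of at least 1 TPM for IAA, with 0. At equal totals, chosen after seeing the data for this comparison, 42 and 42 members in -IAA and +IAA were higher at 60 min than in asynchronous cells, and 31 and 26 had their highest mean at 50 or 60 min.

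Leaving out each replicate in turn, where a lone library is assumed to vary like the other groups, gave 6 to 33 members lower at 120 than at 60 min in CCNA-GFP. In asynchronous against mitotic cells at equal totals it gave 3 to 13, 6 to 9 and 8 to 13 members higher in the 3 arms. Those lower numbered 3 to 20, 16 to 27 and 17 to 22 in CCNA-GFP, -IAA and +IAA. For IAA, without the block, leaving out replicates gave 0 to 0. Changes near 0 turned sign: Gtf2i at 60 min in CCNA-GFP was -0.046 without the block and -0.020 with division by the multiplier, and Med27 was -0.0095 in CCNA-GFP and -0.030 in -IAA without the block. Leaving out replicates moved Med27 between -0.014 and 0.122 in -IAA and between -0.094 and 0.019 in +IAA, and Taf1d between -0.257 and 0.029 in +IAA, in each case turning its sign without replicate 1. Polr2j in mitosis differed by 0.012 between the IAA arms with division by the multiplier. The causes were not tested, and shares of all genes are not given beside the counts of members in this section. Leaving out Taf9, also chosen after seeing the data, gave 1, 7 and 8 members lower in asynchronous than in mitotic cells.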

Other observations

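Genes of neighbouring steps of transcription were set against all genes at 60 min, of which 88.3%, 84.8% and 82.2% were higher than in mitosis in CCNA-GFP, -IAA and +IAA. Of 25 listed genes for pausing and elongation of polymerase II, 25, 25 and 23 were higher in these arms, with median log2 changes of 1.07, 0.81 and 0.77. Of 18 listed genes specific to polymerases I and III, 18, 15 and 14 were higher, with medians of 0.89, 0.65 and 0.69. Of 5 further TFIIH genes, 4, 4 and 4 were higher, with medians of 1.19, 0.70 and 0.73. Cdk19, the paralog of Cdk8, changed by 1.18, 1.23 and 1.13. The medians of all genes were 0.79, 0.63 and 0.63. At equal library totals 12, 13 and 11 of the pausing and elongation genes were higher and 6, 8 and 9 lower, and 6, 5 and 8 of those of polymerases I and III were higher and 8, 7 and 7 lower, where 36.4%, 39.4% and 40.7% of all genes were higher and 33.3%, 31.1% and 33.2% lower.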
